A study of Mus musculus with 9 samples.

Results

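The 45 genes described here build the machinery that copies DNA: the proteins that mark and license replication origins, the helicase, the sliding clamp and its loader, the polymerases and primase, the proteins that coat and join new strands, and the enzymes that supply deoxynucleotides. They were chosen by name from these functions, with earlier results of these data known, and all 45 were found among the 21883 genes of the expression table. They were followed through thymic invariant natural killer T (iNKT) cells, T cells with a semi-invariant receptor for lipids on CD1d, which pass from stage 2 (CD44hi NK1.1lo) to stage 3 (CD44hi NK1.1hi) as they mature. There were 9 RNA libraries, 3 for each group, all from sorted thymic cells that bound the CD1d-PBS57 tetramer and were CD24lo. The groups were stage 2 cells of wild type (WT) C57BL/6 mice aged 6 weeks, stage 3 cells of the same kind of mice, and stage 2 cells of mice lacking *Med23*, a subunit of the Mediator complex, through a floxed allele (*Med23* fl/fl) and Cre driven by the *Cd4* promoter. That Cre acts from the CD4+CD8+ thymocyte stage, in all αβ T lineages and not in iNKT cells alone, and the age of the *Med23*-deficient mice is not given in the labels used here. Nor do they say whether the WT and *Med23*-deficient libraries were prepared and sequenced together. A difference of that kind could not be told apart from one of genotype. The methods of the study speak of 3 independent experiments, but whether the 3 libraries of a group came from separate mice is not given in the labels, so the p-values measure the spread between these libraries, and how much of it is technical is unknown.

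Replication begins on origins bound by the origin recognition complex. In G1, CDC6 and CDT1 load the MCM2-7 ring there, and at the start of S phase CDC45, the GINS complex and MCM10 turn the ring into a moving helicase. Transcription factors of the E2F family drive many of these genes as cells pass from G1 into S, so that dividing T cells carry more of their mRNA than resting ones. iNKT cells divide strongly at early stages of thymic development and little once they reach stage 3. Whether the replication genes follow the stage, and whether *Med23*-deficient stage 2 cells carry them like WT stage 2 cells, are the questions that these comparisons address.

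Library quality and cell identity were read first. Depth is unknown because the table holds FPKM (fragments per kilobase of transcript, scaled to library size) and no read counts; between 15584 and 17333 genes were above 0 per library. The iNKT identity genes had a summed level of 956 to 1205 FPKM over 8 genes, but they did not move together. At WT stage 3, 4 were lower and 4 higher than in WT stage 2. *Zbtb16* was at 27.2% and *Cd4* at 41.1% of the WT stage 2 mean there, and *Il2rb* at 258%. In *Med23*-deficient stage 2, 3 were lower and 5 higher, with *Zbtb16* at 77.3%. The stage 3 markers summed to 551 to 609 FPKM in WT stage 3 against 165 to 200 in WT stage 2 and 140 to 206 in *Med23*-deficient stage 2. Most of these sums came from *Il2rb* and *Tbx21*; *Klrb1c*, which encodes the NK1.1 antigen of the gate, *Klrd1* and *Klrk1* were at 20.4%, 15.5% and 18.1% of their WT stage 2 means in *Med23*-deficient stage 2, without overlap, and these NK receptors were not tested for a part in the results. *Med23* itself read 5.51, 5.15 and 6.74 FPKM in WT stage 2, 7.14, 4.44 and 6.12 in WT stage 3 and 4.80, 3.60 and 3.92 in the *Med23*-deficient libraries. The last 3 lay below every WT stage 2 library, and the highest of them (4.80) lay above the lowest WT stage 3 library (4.44). Between the *Med23*-deficient and WT stage 2 groups the log2 difference from limma was -0.41, with an adjusted p of 0.552. The floxed exons were not looked at separately.

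In WT cells, the replication genes were lower at stage 3 than at stage 2 as a group: 35 of 45 had a negative log2 difference, and the median over them was -0.30 on the log2(FPKM + 1) scale, where the median of all 20689 genes tested was -0.01. Without WT stage 2 replicate 3 the median over the 45 genes was -0.19, and without WT stage 2 replicate 2 it was -0.45. In *Med23*-deficient stage 2 cells, 40 of 45 were lower than in WT stage 2, with a median of -0.41 against -0.01 over 20674 genes. Between *Med23*-deficient stage 2 and WT stage 3 the genes were split, 27 lower and 18 higher, with a median of -0.07 against 0.00 over 20846 genes. The comparisons share libraries and are therefore set side by side only. In bulk RNA, fewer cells in S phase and less mRNA per cell cannot be told apart.

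Each gene was tested with limma. At an adjusted p of at most 0.05, 1 of 45 fell in WT stage 3 against WT stage 2 (*Dut*), where 1.67% of all genes were called, and 2 fell in *Med23*-deficient against WT stage 2 (*Pcna* and *Mcm3*), where 0.213% were. None passed between *Med23*-deficient stage 2 and WT stage 3, where 1.33% of all genes did. At an unadjusted p of at most 0.05, 2 of the 45 were lower there and 1 higher, beside 1020 lower and 1108 higher of 20846 genes. By the thresholds of the study (a change of 2-fold or more with p no higher than 0.05 before adjustment), the counts were 2 of 45 (*Rrm2* and *Pole2*; background 3.60%), 3 of 45 (*Rrm2*, *Cdc45* and *Dut*; background 2.11%) and 0 of 45 (background 2.86%). The first of these lies near its background, so that few single genes carried the group difference past a strict threshold. Without the adjustment, 12 of 45 (26.7%) were lower in WT stage 3 at a p of at most 0.05, beside 7.79% of all genes. That count was 7 without WT stage 3 replicate 3, and in a Ballgown-style linear model, nearest to the test of the study, it was 1 of 45 beside 7.15% of all genes. In the *Med23*-deficient libraries 15 of 45 (33.3%) were lower than in WT stage 2, beside 6.02% (9 of 45 beside 3.76% in the Ballgown-style model), and 2 of 45 (4.44%) were lower than in WT stage 3, beside 4.89%. No gene of the 45 was higher at that p in either comparison with WT stage 2.

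The same was seen when the libraries were only ranked. All 3 WT stage 3 libraries lay below all 3 WT stage 2 libraries for 13 of 45 genes, beside 10.4% of all genes, or for 12 of 39 beside 14.5% once low genes (mean below 1 FPKM) were left out. All 3 *Med23*-deficient libraries lay below all 3 WT stage 2 libraries for 19 of 45, beside 8.37%, or for 17 of 39 beside 11.9% without the low genes. They lay below all 3 WT stage 3 libraries for 4 of 45, beside 6.75%, or 4 of 35 beside 9.37%. The median distance of the 45 genes from their WT stage 2 mean was 0.03, -0.13 and 0.15 in the WT stage 2 libraries, -0.25, -0.22 and -0.41 at WT stage 3, and -0.36, -0.54 and -0.35 in the *Med23*-deficient libraries, so that no library of either group reached the lowest WT stage 2 library.

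**Figure D1:**
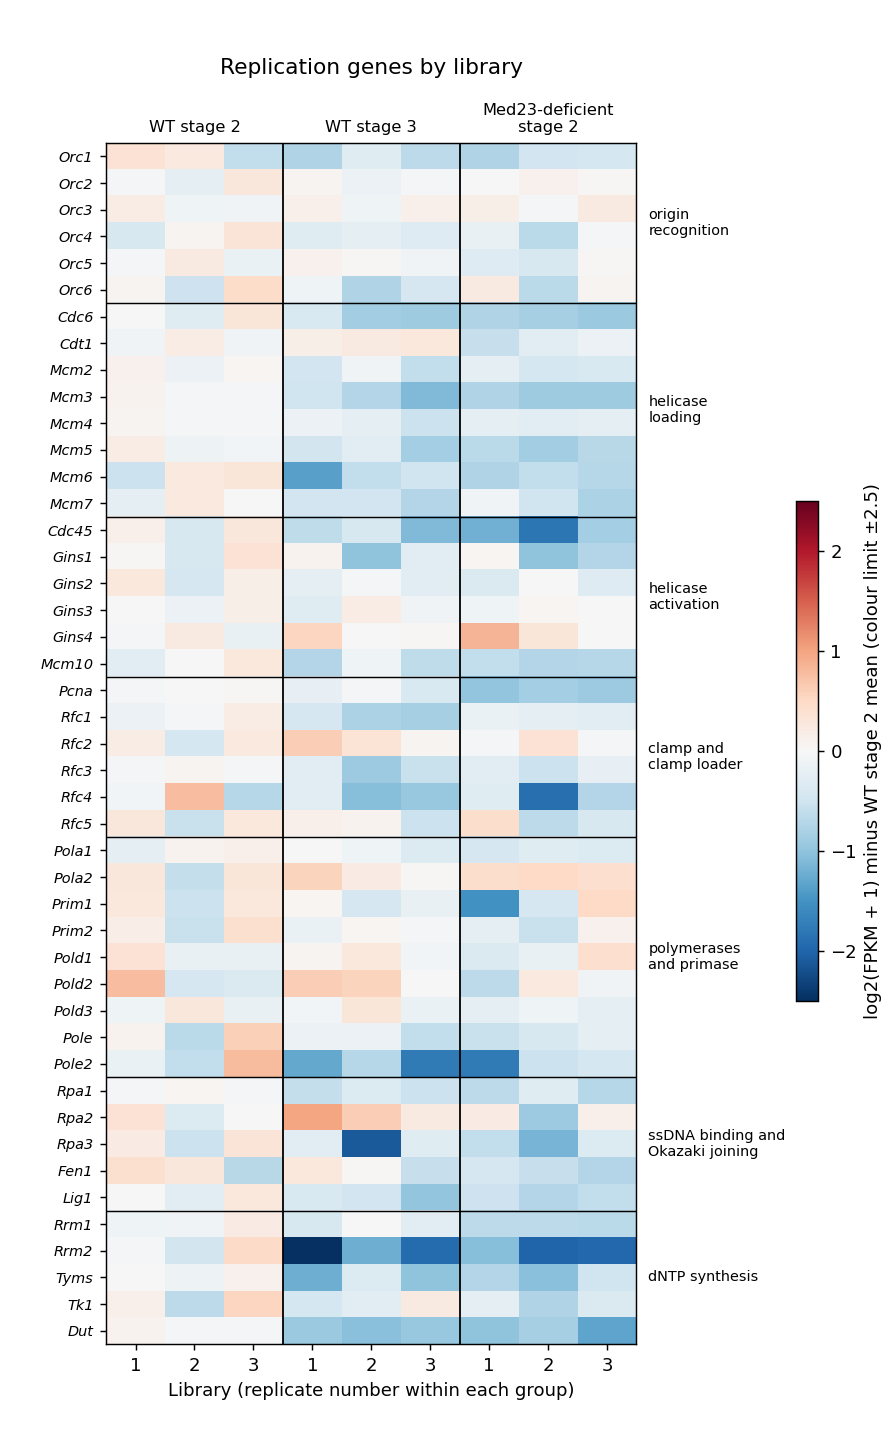
Each cell is 1 gene in 1 library, coloured by log2(FPKM + 1) minus the mean of the 3 WT stage 2 libraries (blue lower, red higher); rows are grouped by role. Blue prevails in the helicase loading and dNTP synthesis rows of both WT stage 3 and *Med23*-deficient stage 2, *Pcna* is blue mainly in the *Med23*-deficient libraries, and origin recognition is mostly pale.

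Levels differed widely between these genes, and per length they can be compared. In WT stage 2 the means ran from 0.677 FPKM for *Mcm10* to 33.6 for *Pcna*. Of the 45, 39 were above 0 in all 9 libraries. *Rpa3* and *Cdc45* were listed at 0 in 1 library each and *Pole2*, *Orc1*, *Gins1* and *Mcm10* in 2 each, which makes 10 of 405 values.

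Origin recognition, the step that marks where replication can start, differed little. None of its 6 subunits, *Orc1* to *Orc6*, reached an unadjusted p of 0.05 in any comparison, and the median difference was -0.17 at WT stage 3 and -0.18 in *Med23*-deficient stage 2. *Orc4*, the most abundant, read 6.88, 9.89 and 11.99 FPKM in WT stage 2, 7.40, 7.88 and 7.24 in WT stage 3 and 8.06, 5.47 and 9.08 in the *Med23*-deficient libraries. The 3 groups overlapped. *Orc2* and *Orc3* stayed between 5.14 and 8.42 FPKM in every library. *Orc1*, the subunit that is degraded and made again in each cycle in mammalian cells, was low, with 1.18, 1.01 and 0.11 FPKM in WT stage 2 and no more than 0.38 in the other 6 libraries. Its log2 differences were -0.57 (SE 0.29) and -0.56 (SE 0.28), with the third WT stage 2 library inside the range of the other groups.

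The genes that load the helicase were lower together. In *Med23*-deficient stage 2 all 8 were below WT stage 2 (median -0.57), 6 of them at an unadjusted p of at most 0.05 (6.02% of all genes) and 7 without overlap (8.37%). At WT stage 3, 7 of 8 were lower (median -0.55), with 5 at that p (7.79%). *Mcm3*, one of the 6 subunits of the ring (ENSMUSG00000041859, chr1:20802968-20820312, minus strand, mm10), read 31.5, 28.5 and 28.5 FPKM in WT stage 2, 20.6, 17.3 and 13.1 in WT stage 3 and 17.0, 15.5 and 15.6 in *Med23*-deficient stage 2. Both groups lay below WT stage 2 without overlap and overlapped each other. The *Med23*-deficient mean was 54.3% of the WT stage 2 mean, a log2 difference of -0.84 (SE 0.09, adjusted p = 0.0427), and the WT stage 3 difference was -0.78 (SE 0.17, adjusted p = 0.0988). *Med23*-deficient and WT stage 3 cells differed by -0.06 (SE 0.17). Over the 17 alternatives the difference from WT stage 2 stayed between -0.97 and -0.74, with an adjusted p of 0.0280 to 0.338 that passed in 5 and in none of the 6 that left out a library.

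*Mcm6*, the most abundant ring subunit in the mean over all libraries, varied more within groups. It read 20.9, 36.5 and 38.3 FPKM in WT stage 2, 11.4, 19.9 and 21.6 in WT stage 3 and 18.0, 19.8 and 18.5 in the *Med23*-deficient libraries. The lowest WT stage 2 library overlapped WT stage 3 and lay above all 3 *Med23*-deficient libraries. The log2 differences were -0.82 (SE 0.32) and -0.69 (SE 0.23). *Mcm5* was at 67.9% of its WT stage 2 mean at stage 3 and at 56.6% in *Med23*-deficient cells, with log2 differences of -0.53 (SE 0.18) and -0.75 (SE 0.14). *Mcm2* and *Mcm4* were nearer to WT stage 2, at 76.3% and 83.3% in *Med23*-deficient cells. *Mcm4* was even between libraries, with an SD of 0.971 FPKM around 23.5 in WT stage 2 and of 0.246 around 19.6 in *Med23*-deficient stage 2 (n = 3 each), where it was the most abundant of the 45. *Mcm7* had differences of -0.57 (SE 0.17) and -0.46 (SE 0.22). It shares its locus with *Cops6* on the opposite strand, a gene of similar level, and some reads of *Cops6* may have been counted for it.

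The loaders *Cdc6* and *Cdt1* differed in pattern. *Cdc6*, which brings the ring to the origin, was low in WT stage 2 (1.25, 0.82 and 1.79 FPKM) and lower in WT stage 3 (0.73, 0.23 and 0.22) and in *Med23*-deficient stage 2 (0.33, 0.27 and 0.18), with no overlap with WT stage 2 in either. *Cdt1*, its partner, read 7.93, 9.85 and 7.91 FPKM in WT stage 2, 9.57, 10.1 and 10.5 in WT stage 3, and 5.40, 6.78 and 7.57 in *Med23*-deficient stage 2. It was thus as high or higher at stage 3, and the *Med23*-deficient libraries lay below all 6 WT libraries. The *Med23*-deficient mean was 65.5% of the WT stage 3 mean, a log2 difference of -0.55 (SE 0.15) at an unadjusted p of 0.00923 and an adjusted p of 0.220; against WT stage 2 the difference was -0.34 (SE 0.17).

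Sequence around the start of these genes was searched for E2F sites because the E2F family is the best known regulator of the group. Of the 45 genes, 38 matched a RefSeq promoter (GRCm38.p6, 250 bases before to 50 after the start), in 46 windows. The words TTTCCCGC, TTTGGCGC and TTTCGCGC, read on both strands, occurred in 15 of these windows (32.6%) and in 1.84% of all 32851 windows. The same words without their first T, which every longer match also contains, occurred in 54.3% and 8.07%. CCAAT, the word bound by NF-Y, occurred in 54.3% and 37.4%, and TTTGAA, the word known as CHR in mitotic genes, in 10.9% and 17.9%. The stretches that hold the 8-letter matches are shown for the 5 genes with the largest log2 differences among those that have one, 4 of them helicase loading genes, from RefSeq, on the strand of the gene and with the E2F words in capitals.
*Mcm3*, chr1:20820266-20820294, minus strand: gGCGGGAAAacttgggaagtTTTGGCGCc
*Mcm5*, chr8:75109336-75109387, plus strand: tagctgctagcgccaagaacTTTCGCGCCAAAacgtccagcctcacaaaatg
*Mcm6*, chr1:128359725-128359835, minus strand: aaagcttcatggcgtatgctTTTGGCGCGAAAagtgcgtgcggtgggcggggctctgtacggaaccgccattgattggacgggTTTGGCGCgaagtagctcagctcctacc
*Cdc6*, chr11:98907993-98908040, plus strand: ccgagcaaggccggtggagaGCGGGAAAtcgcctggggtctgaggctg
*Pole2*, chr12:69228162-69228191, minus strand: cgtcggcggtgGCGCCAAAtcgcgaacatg
The *Mcm5* word and the first *Mcm6* word are overlapping matches on both strands, 2 each. In *Mcm3* the pair lies just past the start, and in *Cdc6* the match lies more than 100 bases before it. A match describes the sequence and was not tested for binding.

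The values of genes with and without an E2F word were set side by side. The 15 genes with an 8-letter match had a median difference of -0.57 at WT stage 3 and the 23 without had -0.29, with 7 and 5 lower at an unadjusted p of at most 0.05. In *Med23*-deficient against WT stage 2 the medians were -0.46 with and -0.48 without, with 5 and 9 lower at that p. *Pcna*, *Dut*, *Rrm2* and *Cdc45* had no 8-letter match in this window. For the 7-letter words the WT stage 3 medians were -0.53 with and -0.39 without, with 8 and 4 lower at that p. For CCAAT they were -0.49 and -0.11, with 7 and 5 lower, and for TTTGAA -0.09 and -0.49, with 0 and 12 lower. In *Med23*-deficient against WT stage 2 the medians were -0.48 with and -0.45 without, both for the 7-letter words and for CCAAT. Lower at that p were 6 of 23 with and 8 of 15 without the 7-letter words, and 10 of 23 and 4 of 15 for CCAAT. For TTTGAA the medians were -0.36 and -0.48, with 2 of 5 and 12 of 33 lower. These counts are descriptions, with no test between them.

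The genes that start the helicase were fewer and lower in level. *Cdc45* (ENSMUSG00000000028, chr16:18780447-18811987, minus strand), the factor that joins the ring to form the active helicase, read 2.84, 1.66 and 3.25 FPKM in WT stage 2, 1.27, 1.66 and 0.63 in WT stage 3 and 0.52, 0 and 0.94 in *Med23*-deficient stage 2. The *Med23*-deficient libraries lay below all WT stage 2 libraries, with a log2 difference of -1.29 (SE 0.35, adjusted p = 0.285), and *Cdc45* passed the fold and p thresholds. The highest WT stage 3 library equalled the lowest WT stage 2 library (difference -0.71, SE 0.31). *Cdc45* overlaps *Ufd1l*, on the other strand. *Mcm10* was listed below 1 FPKM everywhere, at 0.38, 0.67 and 0.98 in WT stage 2 and at 0.09, 0 and 0.01 in *Med23*-deficient stage 2.

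The GINS subunits travel with the ring as one complex. *Gins4*, the most abundant of the 4, read 7.65, 9.47 and 6.91 FPKM in WT stage 2, 11.96, 7.88 and 8.09 in WT stage 3 and 15.13, 10.02 and 7.89 in *Med23*-deficient stage 2. The groups overlapped, and the differences were positive (0.18, SE 0.20, and 0.38, SE 0.25). *Gins1* and *Gins2* were low with negative differences, and *Gins3* was near 0 (-0.06, SE 0.24, and -0.02, SE 0.22). None of the 4 had an unadjusted p of at most 0.05.

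*Pcna*, the ring that holds polymerases on DNA and the most abundant of the 45 in WT cells, separated *Med23*-deficient stage 2 from both WT stages. It (ENSMUSG00000027342, chr2:132249162-132253314, minus strand) read 32.3, 34.0 and 34.4 FPKM in WT stage 2, 29.1, 32.4 and 25.5 in WT stage 3 and 16.4, 18.1 and 17.5 in *Med23*-deficient stage 2. All 3 *Med23*-deficient libraries lay below all 6 WT libraries, and 1 WT stage 3 library reached the WT stage 2 range. *Pcna* was at 51.7% of its WT stage 2 mean in *Med23*-deficient cells, a log2 difference of -0.92 (SE 0.08, adjusted p = 0.0304), and at 86.5% in WT stage 3 (-0.21, SE 0.11, adjusted p = 0.480). The difference between *Med23*-deficient stage 2 and WT stage 3 was -0.71 (SE 0.11), with an adjusted p of 0.0508. Over 17 alternatives the first of these stayed between -1.04 and -0.81, with an adjusted p of 0.00630 to 0.305 that passed in 7 and in none of the 6 that left out a library. A processed copy, *Pcna-ps2*, was listed at 1.81 to 6.31 FPKM, so that a part of the reads may have been shared.

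The clamp loader was uneven. *Rfc1*, its large subunit, read 10.7, 11.6 and 13.6 FPKM in WT stage 2, 8.71, 6.45 and 6.29 in WT stage 3 and 10.5, 9.98 and 9.60 in *Med23*-deficient stage 2. The *Med23*-deficient libraries lay between the WT stages without overlapping either, nearer to stage 2. The log2 difference was -0.68 (SE 0.17, unadjusted p = 0.00674) at WT stage 3 and -0.23 (SE 0.13) in *Med23*-deficient cells, and between the 2 lower groups it was 0.45 (SE 0.15, unadjusted p = 0.0249, adjusted p = 0.36). *Rfc3* lay below WT stage 2 without overlap in both groups, with no unadjusted p of at most 0.05. *Rfc2* had a higher mean in both, *Rfc5* overlapped, and *Rfc4* was spread from 2.19 to 7.91 FPKM within WT stage 2 and overlaps *Eif4a2*, a gene of much higher level on the other strand.

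**Figure D2:**
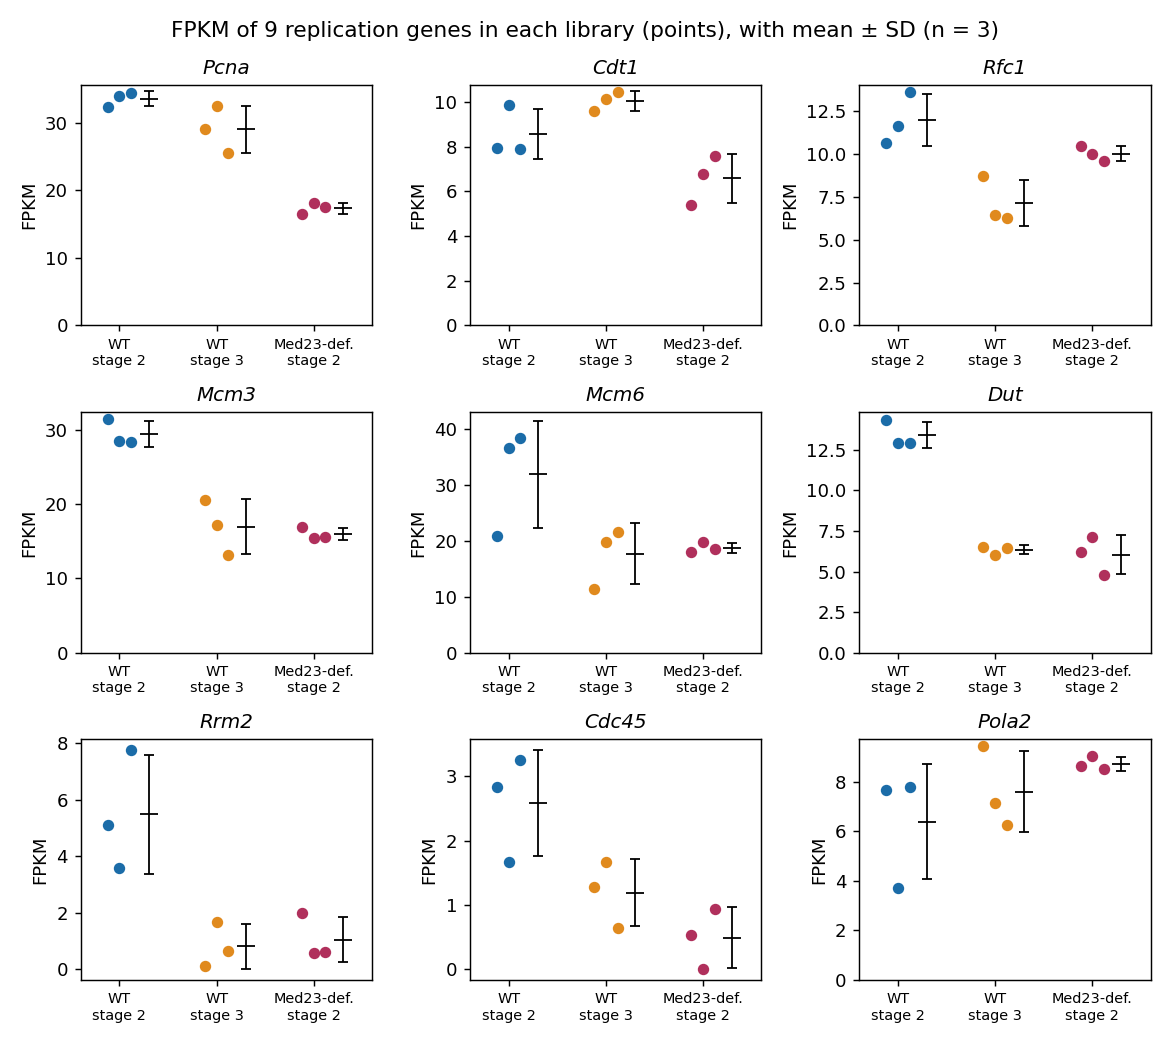
Points are FPKM in each of the 3 libraries of a group and bars are the mean with SD (n = 3), for 9 of the genes, each on its own axis. *Pcna* and *Cdt1* are lowest in *Med23*-deficient stage 2, *Rfc1* is lowest in WT stage 3, *Mcm3*, *Mcm6*, *Dut* and *Rrm2* are low in both, and *Pola2* is not lower in either.

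The polymerases and primase differed little at WT stage 3 (9 genes, median -0.05, 5 lower and 4 higher) and were mostly lower in *Med23*-deficient stage 2 (median -0.23, 8 lower and 1 higher), where none had an unadjusted p of at most 0.05. *Pola2*, the accessory subunit of the primase complex, was the most abundant of them in the mean over all libraries. In WT stage 2 the mean of *Pold3* was higher (6.47 against 6.39 FPKM), and in WT stage 3 that of *Pold2* (8.12 against 7.61). *Pola2* read 7.66, 3.70 and 7.81 FPKM in WT stage 2 and 9.44, 7.15 and 6.24 in WT stage 3. The *Med23*-deficient libraries read 8.65, 9.04 and 8.51. *Pola2* was the single gene of the 45 whose *Med23*-deficient libraries all lay above the WT stage 2 ones, with 8.51 against 7.81 FPKM at the nearest. The log2 difference between these groups was 0.45 (SE 0.27, adjusted p = 0.678), in a comparison that the second WT stage 2 library widened. *Pole2*, a subunit of the leading strand polymerase (ENSMUSG00000020974, chr12:69201779-69228190, minus strand), read 2.04, 1.21 and 4.89 FPKM in WT stage 2, 0.41, 1.09 and 0 in WT stage 3 and 0, 1.36 and 1.51 in *Med23*-deficient stage 2. WT stage 3 lay below WT stage 2, by 1.09 against 1.21 at the nearest, with a log2 difference of -1.25 (SE 0.46, adjusted p = 0.319), and passed the fold and p thresholds. Its catalytic partner *Pole* had -0.30 (SE 0.38). *Pold1*, *Pold2* and *Pold3* of the lagging strand polymerase ranged from -0.19 to 0.39 over both comparisons with WT stage 2, and *Pola1*, *Prim1* and *Prim2* from -0.48 to -0.05.

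**Figure D3:**
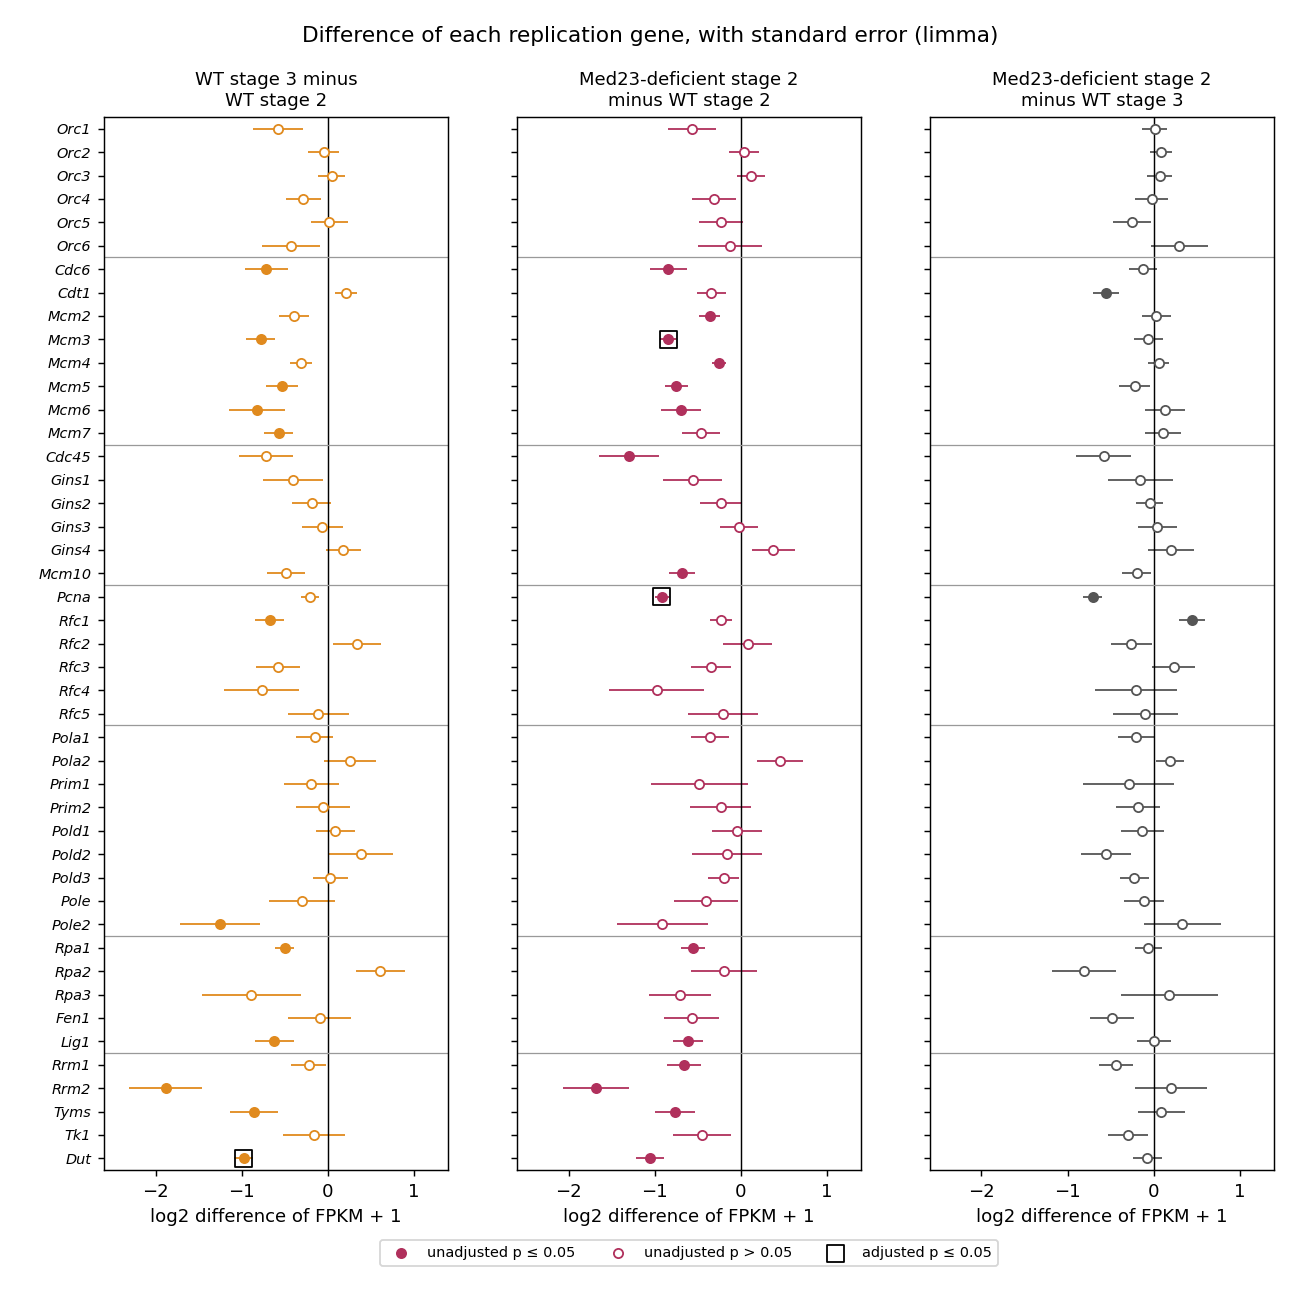
Points are log2 differences of FPKM + 1 from limma with bars of 1 SE, for the 45 genes in each of the 3 comparisons; filled points have an unadjusted p of at most 0.05, and squares mark an adjusted p of at most 0.05. Most points lie left of 0 in both comparisons with WT stage 2, and on both sides of 0 in the third, where *Pcna*, *Cdt1* and *Rfc1* are the filled points and *Rpa2*, open, lies farthest from 0 (-0.81, SE 0.37).

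Among the proteins that bind single strands and join Okazaki fragments, *Rpa1* and *Lig1* were lower in both groups. *Rpa1*, the large subunit of the single-strand binding complex and the most abundant of these 5, read 15.2, 16.1 and 15.1 FPKM in WT stage 2, 9.83, 11.97 and 10.3 in WT stage 3 and 9.53, 12.3 and 9.0 in *Med23*-deficient stage 2. WT stage 2 stood above both other groups, which overlapped. The log2 differences were -0.50 (SE 0.11, adjusted p = 0.110) and -0.56 (SE 0.14, adjusted p = 0.239). *Lig1*, the ligase that seals the fragments, had -0.62 (SE 0.22) and -0.62 (SE 0.17). *Rpa2*, the middle subunit of the same complex as *Rpa1*, did not follow it: 7.65, 5.72 and 4.11 FPKM at WT stage 3 against 4.57, 2.42 and 3.36 in WT stage 2, a difference of 0.61 (SE 0.28), while *Med23*-deficient stage 2 had 4.02, 1.33 and 3.74. *Rpa3* and the flap nuclease *Fen1* had negative differences in both, with overlap.

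The enzymes of deoxynucleotide supply had the largest median differences of the 7 roles on the log2(FPKM + 1) scale, -0.86 at WT stage 3 and -0.77 in *Med23*-deficient stage 2, and all 5 were lower in both. *Dut*, the dUTPase that keeps uracil out of DNA (ENSMUSG00000027203, chr2:125247190-125258608, plus strand), read 14.4, 12.9 and 13.0 FPKM in WT stage 2, 6.54, 6.01 and 6.45 in WT stage 3 and 6.18, 7.14 and 4.77 in *Med23*-deficient stage 2. Both groups overlapped each other and lay below WT stage 2 (47.2% and 45% of its mean). The log2 difference at WT stage 3 was -0.97 (SE 0.11, adjusted p = 0.0229), and that in *Med23*-deficient cells was -1.05 (SE 0.16, adjusted p = 0.0925), past the fold and p thresholds. The 2 groups differed from each other by -0.07 (SE 0.17). Over 17 alternatives the WT stage 3 difference stayed between -1.09 and -0.89, with an adjusted p of 0.0118 to 0.157 that passed in 9 and in none of the 6 that left out a library.

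*Rrm2*, the small subunit of ribonucleotide reductase that limits its activity to S phase, had the largest difference of the 45 on the log2(FPKM + 1) scale in both comparisons with WT stage 2. By the ratio of means, *Mcm10* (4.93% of WT stage 2) and *Cdc45* (18.8%) were lower in *Med23*-deficient cells than *Rrm2* (19.1%), and with a pseudocount of 0.01 the difference of *Pole2* at WT stage 3 (-3.79) was larger than that of *Rrm2* (-3.39). *Rrm2* (ENSMUSG00000020649, chr12:24708241-24714146, plus strand) read 5.11, 3.58 and 7.75 FPKM in WT stage 2, 0.10, 1.68 and 0.65 in WT stage 3 and 1.98, 0.56 and 0.60 in *Med23*-deficient stage 2. No library of either group reached WT stage 2, although levels within each group varied several fold. The log2 differences were -1.88 (SE 0.42, adjusted p = 0.111) and -1.68 (SE 0.39, adjusted p = 0.210), and both passed the fold and p thresholds. *Rrm1*, the large subunit of the same enzyme, read 3.80, 3.83 and 4.95 FPKM in WT stage 2, 2.90, 4.18 and 3.31 in WT stage 3 and 2.28, 2.29 and 2.25 in *Med23*-deficient stage 2. It overlapped at WT stage 3 (-0.22, SE 0.20), and its *Med23*-deficient libraries lay below all 6 WT libraries (-0.66, SE 0.20, against WT stage 2).

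*Tyms*, which makes thymidylate, was at 29.96% and 33.8% of its WT stage 2 mean of 1.58 FPKM, with log2 differences of -0.86 (SE 0.28) and -0.77 (SE 0.23) and no overlap in either. *Tk1*, the salvage kinase for thymidine, was listed at 0.18 to 1.69 FPKM in WT stage 2 and overlapped in both.

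Set side by side, the 12 genes lower at WT stage 3 at an unadjusted p of at most 0.05 were *Cdc6*, *Mcm3*, *Mcm5*, *Mcm6*, *Mcm7*, *Rfc1*, *Pole2*, *Rpa1*, *Lig1*, *Rrm2*, *Tyms* and *Dut*. The 15 lower at that p in *Med23*-deficient stage 2 were *Cdc6*, *Mcm2*, *Mcm3*, *Mcm4*, *Mcm5*, *Mcm6*, *Cdc45*, *Mcm10*, *Pcna*, *Rpa1*, *Lig1*, *Rrm1*, *Rrm2*, *Tyms* and *Dut*. Both comparisons use the same 3 WT stage 2 libraries, so genes on both lists are no independent support. In the direct test of *Med23*-deficient stage 2 against WT stage 3, *Pcna* and *Cdt1* were lower and *Rfc1* higher at an unadjusted p of at most 0.05. Over all 20846 genes, 1020 were lower and 1108 higher at that p. For the other 42 genes that comparison left the difference unresolved, with SEs of up to 0.57 on the log2 scale. *Gins4*, *Orc3*, *Pola2* and *Rfc2* had a higher mean than WT stage 2 in both groups, none at that p.

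A further 6 lists of the same pathway, 85 genes outside the 45, were read beside them, also chosen with earlier results of these data known. In them 65 of 85 were lower at WT stage 3 (median -0.28; 26 at an unadjusted p of at most 0.05, beside 7.79% of all genes) and 65 of 85 in *Med23*-deficient stage 2 (median -0.32; 25 at that p, beside 6.02%, and 1 higher). The switch from G1 to S, made of E2F factors and cyclin E with its kinase, had 11 of 12 lower in both, with medians of -0.84 and -0.58. *E2f8*, a repressor of the family that is itself made in S phase, read 2.10, 1.26 and 1.32 FPKM in WT stage 2, 0.04, 0.09 and 0 in WT stage 3 and 0.11, 0 and 0.18 in *Med23*-deficient stage 2. It fell at WT stage 3 (log2 difference -1.28, SE 0.18, adjusted p = 0.0374) and passed the fold and p thresholds in both comparisons. *E2f2*, an activator, read 3.17, 2.73 and 4.02 FPKM in WT stage 2 and at most 0.95 in the other 6 libraries, and passed the fold and p thresholds in both comparisons. *Ccne1* and *Ccne2* passed them at WT stage 3, and *E2f3* in *Med23*-deficient stage 2.

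The factors that rebuild chromatin behind the fork had the largest medians of the 6 lists, -0.99 and -0.88. The maintenance methyltransferase itself, *Dnmt1*, had the same mean at both WT stages (38.6 FPKM) and read 29.6, 32.2 and 35.9 FPKM in *Med23*-deficient stage 2, below all 6 WT libraries (log2 difference -0.24, SE 0.10, against WT stage 2). The other genes of the list had negative differences in both comparisons. *Hells*, a remodelling helicase, fell from 6.11, 6.71 and 6.16 FPKM in WT stage 2 to 2.6, 2.03 and 2.17 in WT stage 3 (adjusted p = 0.0404), and *Med23*-deficient stage 2 had 2.73, 1.67 and 2.67. *Hells*, *Chaf1a*, the large subunit of the histone chaperone CAF-1, and *Uhrf1*, which brings *Dnmt1* protein to new DNA, passed the fold and p thresholds in both. Fork protection (14 genes, medians -0.02 and -0.12), further replisome subunits (8 genes, -0.09 and -0.10) and origin firing regulators (12 genes, 0.01 and -0.30) had smaller medians. Among them *Clspn*, the checkpoint adaptor, passed the fold and p thresholds at WT stage 3 (-1.38, SE 0.26).

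Other nucleotide supply (33 genes, medians -0.41 and -0.38) had 7 genes higher at WT stage 3 and 8 in *Med23*-deficient stage 2. Positive differences were also found among origin firing regulators (6 and 4 of 12) and fork protection genes (4 and 5 of 14). *Samhd1*, a dNTP hydrolase and so the opposite of a supplier, read 20.4, 18.0 and 24.9 FPKM in WT stage 2, 15.0, 9.64 and 11.9 in WT stage 3 and 32.4, 26.9 and 34.5 in *Med23*-deficient stage 2. The 3 groups did not overlap, and *Med23*-deficient stage 2 was above WT stage 3 by 1.30 on the log2 scale (SE 0.18, adjusted p = 0.0343). *Mthfd2*, an enzyme of mitochondrial one-carbon supply, was also higher in *Med23*-deficient stage 2 than in WT stage 3 (0.84, SE 0.13, adjusted p = 0.0492). *Dctpp1*, a dCTP pyrophosphatase, was lowest in *Med23*-deficient stage 2, with 11.7, 8.59 and 10.2 FPKM in WT stage 2, 6.18, 5.23 and 3.28 in WT stage 3 and 1.85, 3.01 and 3.09 in *Med23*-deficient stage 2 (-1.62 against WT stage 2, SE 0.22, adjusted p = 0.0670).

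**Figure D4:**
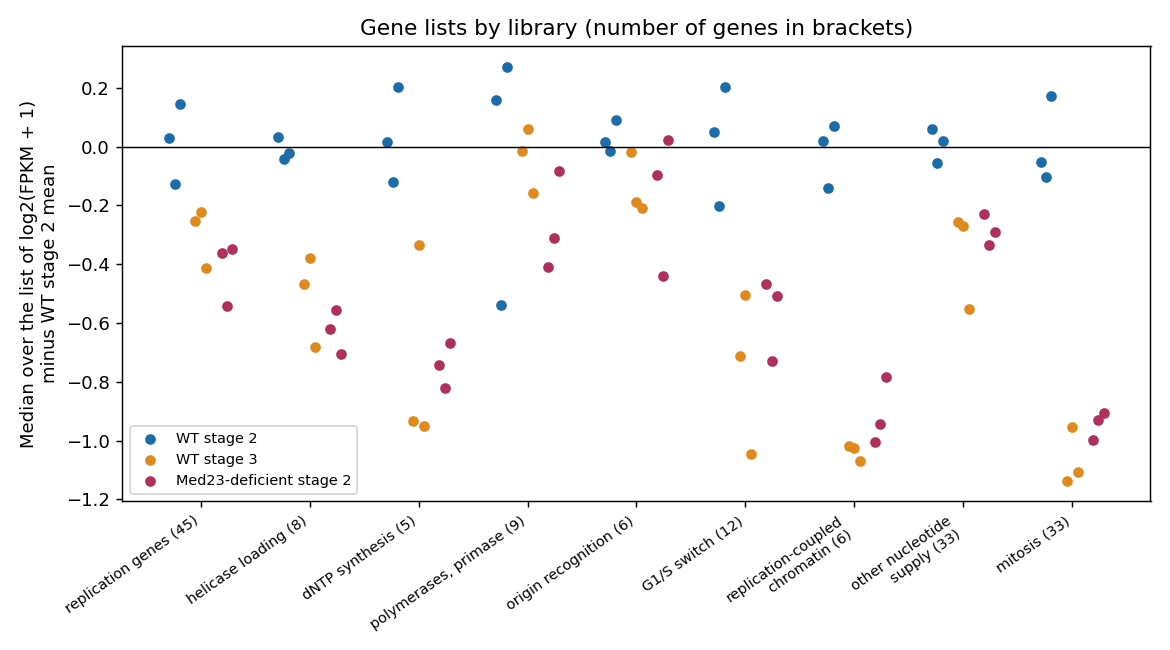
Each point is 1 library and gives the median over a gene list of log2(FPKM + 1) minus the WT stage 2 mean. WT stage 3 and *Med23*-deficient stage 2 lie lowest for mitosis and replication-coupled chromatin, lie below 0 for helicase loading and dNTP synthesis, and meet the WT stage 2 range for polymerases. For origin recognition the *Med23*-deficient libraries lie from -0.44 to 0.02, and only the highest is inside the WT stage 2 range. The WT stage 3 libraries lie from -0.21 to -0.02, all below that range.

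Other gene lists differed between the same groups. The mitosis list was lower still, with 33 of 33 genes lower at WT stage 3 (median -1.09) and 32 of 33 in *Med23*-deficient stage 2 (median -0.99). Its summed level was 87.9 to 110 FPKM in WT stage 2, 9.81 to 26.3 in WT stage 3 and 14.7 to 16.8 in *Med23*-deficient stage 2. Markers of NKT17 cells, a subset that the stage 2 gate can hold, followed the same order: all 7 genes tested were lower in both, and the sum was 24.5 to 29.5 FPKM in WT stage 2, 0 to 2.09 in WT stage 3 and 0.10 to 1.12 in *Med23*-deficient stage 2. Markers of NKT2 cells summed to 131 to 177 FPKM in WT stage 2, 42.8 to 44.4 in WT stage 3 and 202 to 258 in *Med23*-deficient stage 2. The gamma T cell receptor genes set the *Med23*-deficient libraries apart, with a γδ list sum of 10.1 to 10.8 FPKM against 396 to 489 in the 6 WT libraries, while *Trdc*, which defines γδ T cells, was at 0.38 FPKM or less in all 9. The part of these lists in the replication gene results was not tested.

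Markers of other cell types were read library by library. The CD4+CD8+ thymocyte list summed to 12.7 to 21.5 FPKM in WT stage 2, 9.21 to 11.8 in WT stage 3 and 15.1 to 21.0 in *Med23*-deficient stage 2, most of it *Rmnd5a* and *Themis*, which mature T cells also express, with *Rag2* at 0.26 or less and *Ptcra* at 0.08 or less. *Rag1* was at 0.15 to 1.58 FPKM in the 9 libraries, *Dntt* at 0 to 1.83, *Cd8a* at 0.05 to 1.64 and *Cd8b1* at 0 to 3.05, with the last of these highest in WT stage 2 replicate 2, and their part in the results was not tested. The B cell list rested on *Ighm* (31.2 to 49.7, 46.0 to 55.1 and 85.6 to 104 FPKM), with *Cd79a* and *Cd79b* at 0.50 or less, and its part in the results was not tested. Myeloid genes summed to 9.79 to 21.2 FPKM and erythroid genes to 0.75 or less over all 9 libraries.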

How the data were processed

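The authors sorted the cells, made libraries with a stranded kit for small amounts of total RNA, trimmed reads with Trimmomatic 0.36, aligned them to mm10 with HISAT2, kept reads hitting at most 2 loci and quantified GENCODE vM12 with StringTie, and the values used here are the FPKM they deposited, per gene and library. Whether strand was used in counting is not given in the sources used here. Of the 45 genes, 21 overlap another gene model, 12 of them a protein-coding one, and reads of such partners may have been shared.

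log2(FPKM + 1) was tested with limma 3.58.1 in R 4.3.3 (mean-variance trend, 2-sided), for each pair of groups on its 6 libraries and on genes above 0 in at least 1 of them, with Benjamini-Hochberg adjustment over all genes tested. This scale understates the change of low genes. Ballgown, used in the study, was not run; a linear model after it was an alternative, beside 2 other pseudocounts, a filter on low values, 4 other scalings, limma without trend, 1 fit of all 9 libraries, the replicate number as a block and leaving out each replicate. The script was tested on simulated data. Motifs were counted in RefSeq promoter windows. Tables and figures were made with Python 3.11.15, pandas 2.3.3 and matplotlib 3.10.9.

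The 45 genes and all lists were chosen with earlier results of these data known. By the rule for naming, all 45 are accounted for by role. Library values are given for genes past an adjusted p of 0.05 or the study's thresholds in any comparison. They are also given for the most abundant of each role, by the mean over all libraries, and further values for genes that the text sets apart. Of the pathway lists, genes past either threshold are named, apart from some that are not reported here; lists of mitosis and cell type markers are given by counts and sums, with a few genes named.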

Additional observations from a re-analysis of the deposited data

How the results depend on the processing

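Differences of named genes were recomputed 558 times in all under the alternatives: none reversed, 30 lost an adjusted p of at most 0.05, 6 gained it and 522 did neither. Most of the 522 had no call to lose: the called differences were *Dut* at WT stage 3 and *Mcm3* and *Pcna* in *Med23*-deficient stage 2, which passed in 9, 5 and 7 of 17 alternatives each. For WT stage 3 against WT stage 2 the count at an adjusted p of at most 0.05 (1) became 2 at a mean FPKM of at least 1 and in the fit of all 9 libraries, and 0 in the Ballgown-style model and the replicate block. The count past fold and p (2) became 5 with a pseudocount of 0.1, 4 with 0.01, and 1 in the Ballgown-style model and the replicate block. The count lower at an unadjusted p (12) became 1 in the Ballgown-style model. For *Med23*-deficient stage 2 against WT stage 2, the adjusted count (2) became 3 at a mean FPKM of at least 1, with *Dut* added. It stayed at 2 in the fit of all 9 libraries, with *Dut* in place of *Mcm3*. It became 1 on the TPM scale, the common upper quartile and after quantile normalization. It became 0 on the TPM scale without *Gm23935*, in the Ballgown-style model and in the replicate block. The fold and p count (3) became 6 with either pseudocount and 1 in the Ballgown-style model, the count lower at an unadjusted p (15) became 9 in the latter, and the median became -0.54 and -0.57 with pseudocounts of 0.1 and 0.01. Against WT stage 3, the adjusted count (0) became 1 at a mean FPKM of at least 1 and in the fit of all 9 libraries, and the count lower at an unadjusted p (2) became 4 in the Ballgown-style model. The cause was not tested.

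Leaving out 1 library gave 0 genes at an adjusted p of at most 0.05 in every case, 1 to 3 past fold and p, 7 to 13 lower at an unadjusted p and medians of -0.45 to -0.19 for WT stage 3 against WT stage 2, and 2 to 4 lower at that p for *Med23*-deficient stage 2 against WT stage 3. The lowest of the 7 to 13 and the highest of the 2 to 4 came without WT stage 3 replicate 3. The medians of -0.45 and -0.19 came without WT stage 2 replicates 2 and 3. On the TPM scale the median over all genes averaging 1 FPKM or more moved from -0.05 to -0.14 at WT stage 3 and to -0.16 in *Med23*-deficient stage 2, and those of the 45 genes to -0.38 and -0.48; 1 non-coding model, *Gm23935*, held 62.2% to 71.9% of the summed FPKM. Replicate numbers are shared between groups, with correlations of same-numbered libraries over 11777 genes from 0.00 to 0.27; not every library correlated best with its own number, so they were not taken as pairs. With the replicate block, genes at an adjusted p of at most 0.05 went from 346 to 19, from 44 to 0 and from 278 to 42 over the 3 comparisons. Depth is unknown, so no counting interval was given for values near 0.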
